A study of Mus musculus with 2 samples.

Results

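The 10 genes described here encode the constant parts of mouse antibodies and the chain that joins them: the heavy chain constant region genes Ighm, Ighd, Igha, Ighg1, Ighg2b, Ighg2c and Ighg3, the light chain constant region genes Igkc and Iglc2, and Jchain. They were taken by name from a fixed list of 10 symbols, all of which were among the 31253 features counted. They were followed through single-cell RNA profiles of abdominal aorta after an aneurysm had been induced with porcine pancreatic elastase (PPE), a protease that breaks down elastin. The Gsdme-KO library came from mice with a global deletion of Gsdme, the gene of the pore-forming protein gasdermin E, and the WT library from C57BL/6J mice given the same PPE model. The sources used here do not give age, sex, the time after PPE, the number of animals pooled or the deleted exons, and no library without PPE was analysed here. Each group was 1 library, so no test between groups was possible. Every interval below is a 95% interval that covers counting error only, and every ratio is the Gsdme-KO value over the WT value and describes these 2 libraries.

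An antibody consists of a pair of heavy chains and a pair of light chains, each with a variable part that binds the antigen and a constant part. The heavy chain constant region sets the antibody class: Ighm gives IgM, Ighd IgD, Igha IgA and the Ighg genes the IgG subclasses. Naive B cells make IgM and IgD from 1 long transcript by alternative splicing, class switching cuts out DNA so that a downstream constant region replaces Ighm, and plasma cells secrete the antibody in large amounts. The light chain is either kappa, with Igkc, or lambda, with Iglc2 as 1 of its constant regions. Jchain encodes the small protein that joins IgM and IgA into polymers.

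On GRCm38 (mm10), with the GENCODE M21 annotation, the heavy chain genes lay on the minus strand of chromosome 12 in the order of switching: Ighm at chr12:113418558-113422730, Ighd at chr12:113406604-113416324, Ighg3 at chr12:113356224-113361232, Ighg1 at chr12:113325240-113330523, Ighg2b at chr12:113302965-113307933, Ighg2c at chr12:113285325-113288932 and Igha at chr12:113254830-113260236. Igkc lay at chr6:70726435-70726966 on the plus strand, Iglc2 at chr16:19198396-19200351 and Jchain at chr5:88519809-88527891, both on the minus strand. The end of the secreted heavy chain is shown because it is where the J chain binds: in IgM and IgA the second-last residue is a cysteine, and in the IgG genes it is not. The lines below give the last 60 coding bases of the secreted form, 5′ to 3′ on the coding strand, with the second-last codon in capitals.
Ighm, chr12:113420870-113420929: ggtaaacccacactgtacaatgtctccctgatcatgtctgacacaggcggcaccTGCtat
Igha, chr12:113258771-113258830: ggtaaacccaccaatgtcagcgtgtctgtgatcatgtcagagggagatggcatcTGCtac
Ighg1, chr12:113328979-113329038: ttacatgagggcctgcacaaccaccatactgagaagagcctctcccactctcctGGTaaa
Ighg2b, chr12:113306392-113306451: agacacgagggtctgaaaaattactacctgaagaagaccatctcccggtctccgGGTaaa
Ighg2c, chr12:113287392-113287451: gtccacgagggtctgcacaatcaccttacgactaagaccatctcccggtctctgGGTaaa
Ighg3, chr12:113359668-113359727: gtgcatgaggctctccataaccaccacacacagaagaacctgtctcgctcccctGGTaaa

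The IgG genes are related in sequence, and their hinge exons differ in length and in the number of cysteine codons. The coding sequences of Ighg2b and Ighg2c were 85.7% identical, and every other pair of Ighg genes was between 74.1% and 76.3% identical. The hinge holds the cysteines that bond the heavy chains to each other, and the lines below give each hinge exon with its cysteine codons in capitals. There were 4 such codons in Ighg1 and in Ighg2b, 3 in Ighg2c and 1 in Ighg3.
Ighg1, chr12:113329844-113329882: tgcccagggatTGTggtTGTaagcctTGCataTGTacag
Ighg2b, chr12:113307261-113307326: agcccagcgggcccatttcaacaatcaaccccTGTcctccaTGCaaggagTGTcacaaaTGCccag
Ighg2c, chr12:113288263-113288325: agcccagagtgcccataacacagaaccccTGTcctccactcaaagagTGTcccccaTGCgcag
Ighg3, chr12:113360529-113360576: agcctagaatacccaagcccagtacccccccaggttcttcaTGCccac

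Iglc2 has a closer copy. Iglc2 and Iglc3 were 96.2% identical over their coding sequences, with 11 mismatched bases and 1 gap, so UMIs (unique molecular identifiers, each standing for 1 captured RNA molecule) may have been split between them. Iglc1 and Iglc2 were 73.4% identical. The lines below give the 90 aligned bases with the most differences between Iglc2 and Iglc3, with the 7 differing bases in capitals.
Iglc2, chr16:19198749-19198838: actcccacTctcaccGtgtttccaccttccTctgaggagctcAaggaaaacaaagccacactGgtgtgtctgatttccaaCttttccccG
Iglc3, chr16:19065578-19065667: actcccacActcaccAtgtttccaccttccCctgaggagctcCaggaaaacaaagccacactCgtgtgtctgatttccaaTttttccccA

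In the Gsdme-KO library 9034 barcodes carried 52532964 UMIs, and in the WT library 7736 barcodes carried 38988898 UMIs. After filtering, 8784 and 7619 cells remained, with medians of 4062 and 3835 UMIs. Gsdme itself had 133 UMIs (2.55 CPM, counts scaled to 1000000 UMIs of the library) in the Gsdme-KO library and 215 UMIs (5.53 CPM) in the WT library, so it was lower under the KO label and not at 0. Which exons were deleted was not given, so UMIs from outside the deleted part cannot be told apart from intact transcript. In B lineage cells Gsdme had 3 UMIs in the Gsdme-KO library and 0 in the WT library. The libraries shared 73 barcodes, of which 65 were kept, 4 of them on B lineage cells and 0 on plasma-like cells. The doublet caller (Scrublet) called 0 cells in either library and had therefore not worked, so doublets remain in all values.

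The cells were clustered without any of the 393 immunoglobulin features, and 1 cluster was led by the B cell markers Cd79a and Ms4a1. It held 225 of 8784 cells (2.56%) in the Gsdme-KO library and 237 of 7619 cells (3.11%) in the WT library, a ratio of 0.823 (0.683 to 0.992). Inside it, 1 sub-cluster was led by Slpi, Derl3 and Xbp1, detected all 10 plasma cell markers in at least 25% of its cells, and is called plasma-like. It held 34 cells in the Gsdme-KO library and 16 in the WT library. A second sub-cluster, of 23 and 15 cells, was led by the macrophage genes Lyve1 and Cd163 beside B cell markers and is called macrophage-marked. The remaining 168 and 206 cells are called B cell-like.

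The constant region genes were concentrated in very few cells. The 10 genes together had 101518 UMIs in the Gsdme-KO library and 85969 in the WT library, or 1945 and 2212 CPM, a ratio of 0.880 (0.872 to 0.888). Averaged over single cells the ratio was 1.10. The plasma-like cells held 73.5% of those UMIs in the Gsdme-KO library and 86.4% in the WT library, although they made up 0.387% and 0.210% of the cells. B cell-like cells held 4.48% and 4.85%, and cells outside the B lineage 17.5% and 8.49%. Values summed over a class therefore follow a few plasma-like cells, and the single-cell values below are needed to read them. Over all kept cells 20.6% of the 18009 genes with at least 10 UMIs reached a ratio of 1.5 either way, 9.8% higher and 10.8% lower, and of the 10 members 3 were higher (Ighg1, Ighg3 and Iglc2) and 5 lower (Ighd, Igha, Ighg2b, Ighg2c and Jchain). In summed RNA of a whole library, more cells of a type and more RNA per cell cannot be told apart.

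**Figure D1:**
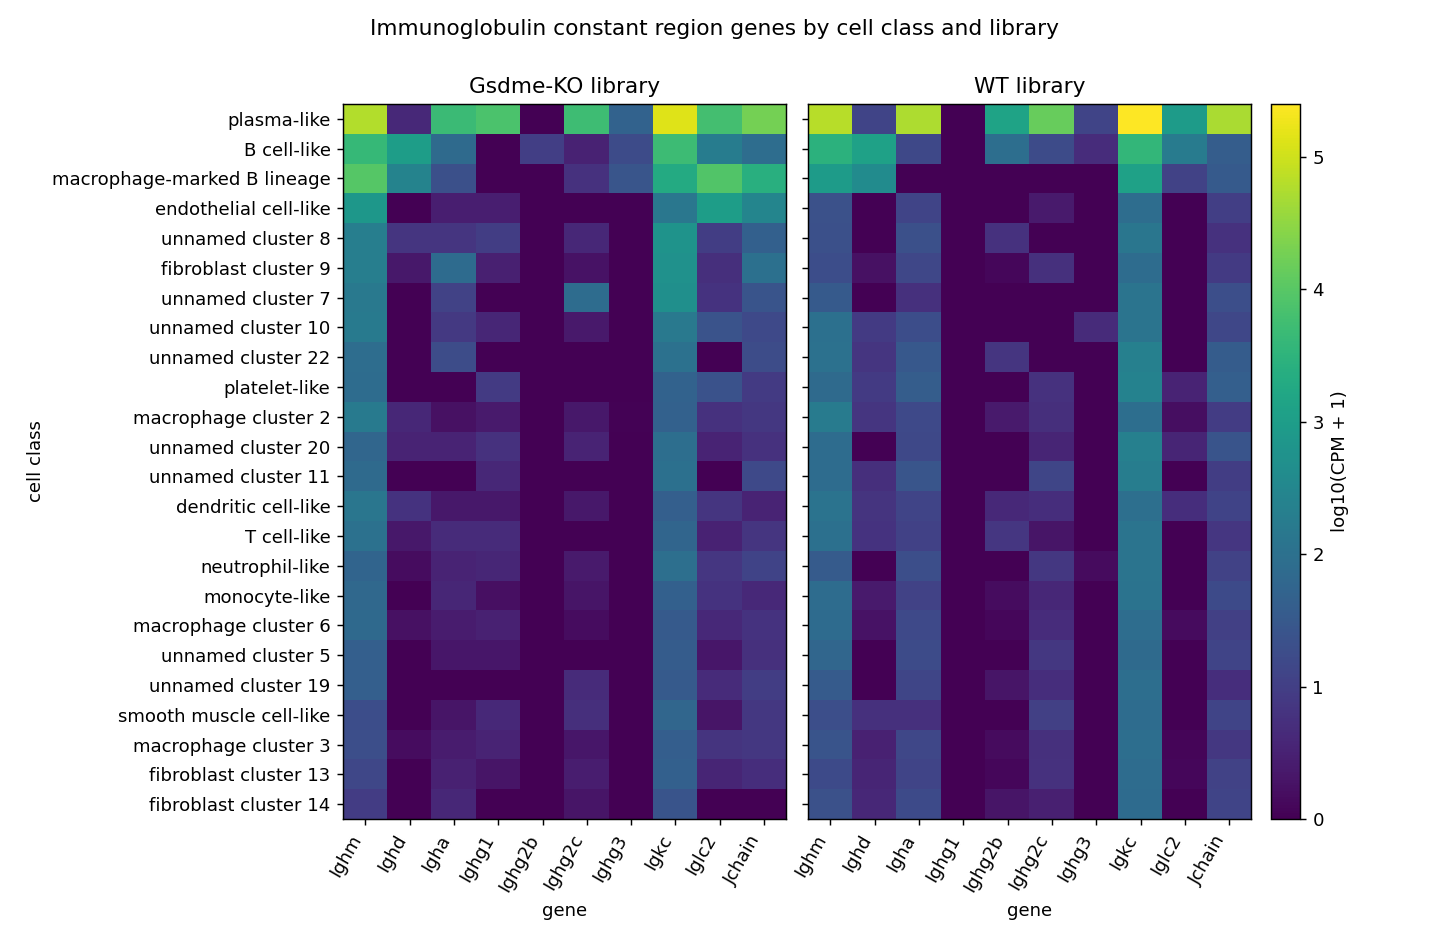
Level of each of the 10 genes in each cell class, as log10(CPM + 1) by colour, with the Gsdme-KO library on the left and the WT library on the right. Plasma-like cells are the brightest row in both libraries, Ighd is brightest in B cell-like cells, and Ighg1 is dark in every WT row because it had 0 UMIs there.

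Plasma-like cells made up a larger part of the B lineage in the Gsdme-KO library. They were 34 of 225 B lineage cells (15.1%, 10.7 to 20.5) in the Gsdme-KO library, against 16 of 237 (6.75%, 3.91 to 10.7) in the WT library, a ratio of 2.24 (1.20 to 4.34). As a share of all kept cells the ratio was 1.84 (0.990 to 3.58), an interval that includes no difference. When cells were called instead by UMIs of at least 3 plasma cell markers other than Xbp1, a rule added after the data were seen, there were 34 and 23 cells and the ratio was 1.56 (0.891 to 2.77). When immunoglobulin genes were let into the clustering, 25 and 16 cells were called plasma-like and the ratio was 1.65 (0.844 to 3.30). In that clustering a further sub-cluster of 16 and 9 cells detected 8 plasma cell and 8 B cell markers. It was led by Ube2c, Top2a and Mki67, had no plasma cell marker among its leading genes and was counted as B cell-like. Without the cells led by the variable segment Igkv5-43, which are described further on, there were 9 and 16 plasma-like cells and the ratio turned to 0.667 (0.260 to 1.60). Igkv5-43 had 0 UMIs in WT cells, so this setting, chosen after the data were seen, removed Gsdme-KO cells only and could only lower the ratio.

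Markers of other cells moved with this group. Of 9 macrophage markers, 4 in the Gsdme-KO and 8 in the WT plasma-like cells were found in at least 25% of the cells, with summed levels of 501 and 845 CPM. The summed B cell markers were at 366 and 949 CPM, with Cd22, Pax5, Blk, Fcer2a and Cr2 at 0 in the Gsdme-KO cells and Cd22, Bank1 and Fcer2a at 0 in the WT cells. None of the 34 Gsdme-KO cells and 15 of the 16 WT cells lay among the 5% highest doublet scores of their library. Their part in the results was not tested. Without those high-scoring cells, 34 and 1 plasma-like cells remained and the ratio of their share of the B lineage was 33.7.

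Each plasma-like cell was dominated by 1 heavy chain gene. The dominant gene made up more than 95% of the heavy chain UMIs in 34 of 34 Gsdme-KO cells and in 14 of 16 WT cells. Both WT exceptions carried Ighg2b beside another gene, 1 of them 176 UMIs beside 1963 of Igha and the other 37 UMIs beside 554 of Ighm. The dominant gene was Ighm in 29 of 34 Gsdme-KO cells (85.3%, 68.94 to 95.05) and in 9 of 16 WT cells (56.3%, 29.9 to 80.2). It was Igha in 2 Gsdme-KO and 6 WT cells, Ighg2c in 2 and 1, and Ighg1 in 1 and 0.

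The load of the constant region genes per cell differed as well. The 10 genes together took between 13.7% and 49.3% of the UMIs of a Gsdme-KO plasma-like cell, with a median of 20.0%, and between 10.9% and 57.7% of those of a WT cell, with a median of 47.3%. The ranges overlapped. The second-lowest WT value was 38.4%, and 3 of 34 Gsdme-KO cells lay at or above it. This limit was taken from the WT values after they were seen, so 15 of 16 WT cells reached it by its choice. Gsdme-KO cells at 38.2%, 38.0% and 37.7% lay just under it. The cells had similar depth, with medians of 9569 UMIs in the Gsdme-KO and 11142.5 in the WT plasma-like cells.

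**Figure D2:**
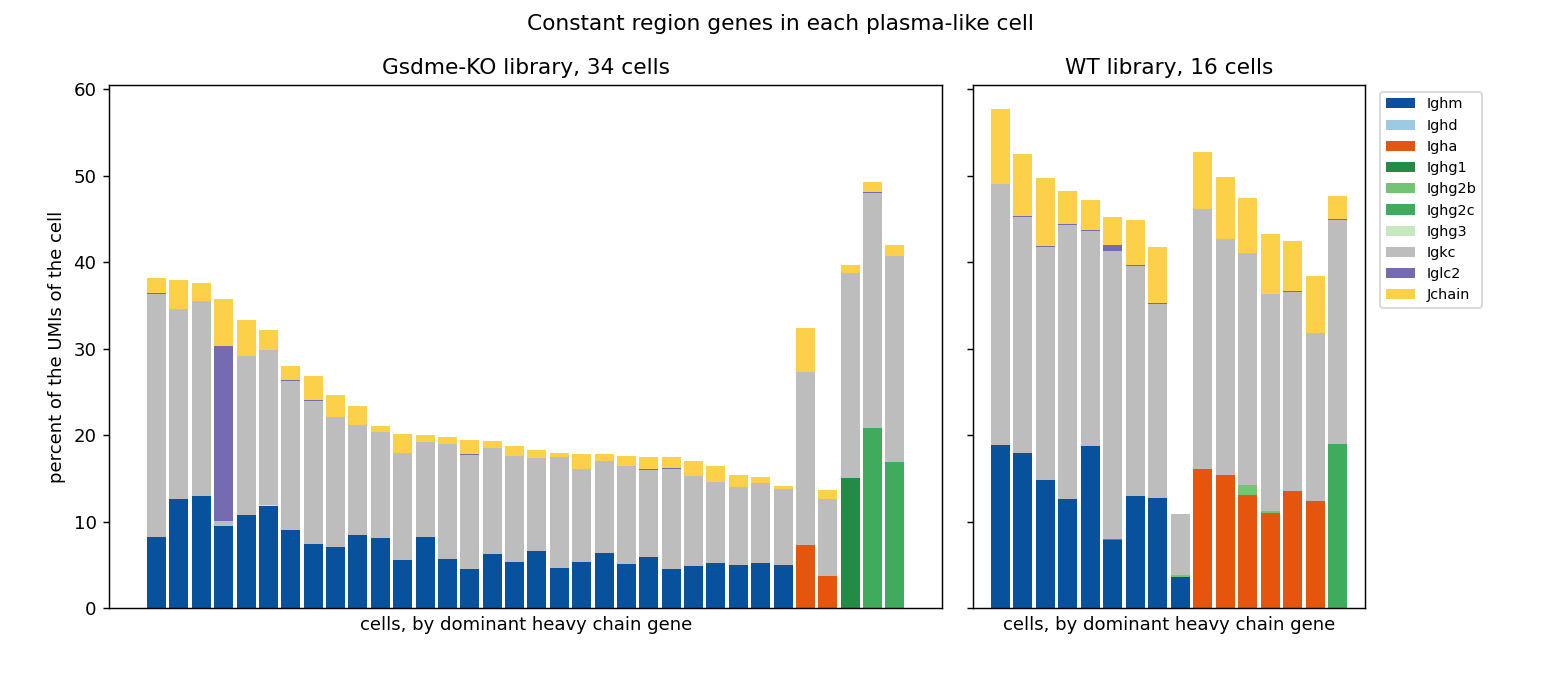
Percent of the UMIs of each plasma-like cell taken by each of the 10 genes, 1 bar per cell, grouped by dominant heavy chain gene, with 34 Gsdme-KO cells on the left and 16 WT cells on the right. Ighm-dominant bars are 29 of 34 in the Gsdme-KO library and 9 of 16 in the WT library, the median bar height is 20.0% and 47.3%, and 1 Gsdme-KO cell carries Iglc2 in place of Igkc.

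Ighm, the IgM heavy chain, was expressed at similar summed levels in both sets of plasma-like cells. It had 58985 CPM in the Gsdme-KO and 64759 CPM in the WT cells, a ratio of 0.911 (0.890 to 0.933). With immunoglobulin genes in the clustering, where 25 and 16 cells were called plasma-like, the ratio was 1.05, so its direction depended on which cells were called. Per cell it ranged up to 1545 UMIs with a median of 572 in the Gsdme-KO cells, and up to 1979 UMIs with a median of 456 in the WT cells. Within the Ighm-dominant cells it took a median of 6.24% of the UMIs in the Gsdme-KO library (4.57% to 12.9%). The WT median was 13.03% (3.64% to 18.9%), so the sums were close while the single Ighm-dominant cells were not.

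Igha, the IgA heavy chain, had the lowest ratio in plasma-like cells among the heavy chain genes with UMIs in both libraries. It had 1482 UMIs (4764 CPM) in the Gsdme-KO plasma-like cells and 9276 UMIs (53677 CPM) in the WT plasma-like cells, a ratio of 0.0888 (0.0840 to 0.0938). Of the Gsdme-KO UMIs, 830 were in 1 cell and 651 in another, while the 6 Igha-dominant WT cells held between 840 and 2070 UMIs each. Another Gsdme-KO cell with 740 Igha UMIs had 28721 UMIs in all and lay in a fibroblast cluster. Over all kept cells the ratio was 0.178 (0.170 to 0.186).

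The IgG genes came from single cells. Ighg1 had 2360 UMIs in 1 Gsdme-KO plasma-like cell and 0 UMIs in any WT cell. That cell held 96.3% of the Ighg1 UMIs of its library, and over all kept cells the level was at least 608-fold higher than the WT floor of 3 UMIs. Ighg2c had 1657 UMIs in the Gsdme-KO plasma-like cells, in which 2 cells held 1371 and 283, and 2420 UMIs in the WT plasma-like cells, all in 1 cell. Its ratio of 0.380 (0.357 to 0.405) therefore compared 2 cells with 1 cell, and it was 1.03 after thinning every cell to 1000 UMIs. Ighg2b had 0 UMIs in the Gsdme-KO and 233 UMIs (1348 CPM) in the WT plasma-like cells, 176 of them in the cell that was Igha-dominant. Against a floor of 3 UMIs, the ratio of Ighg2b was at most 0.00715. Ighg3 had 15 UMIs and 2 UMIs, and all 15 were in 1 Ighm-dominant cell. Ighd had 1 UMI and 2 UMIs, at or under the floor in both libraries.

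Igkc, the kappa light chain, was found in every plasma-like cell. It ranged from 56 to 3735 UMIs with a median of 1369.5 in the Gsdme-KO cells, and from 573 to 4046 UMIs with a median of 2749 in the WT cells. Summed, it had 138078 CPM in the Gsdme-KO and 242978 CPM in the WT cells, a ratio of 0.568 (0.561 to 0.576). The ranges overlapped widely while the medians stood apart.

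Iglc2, a lambda light chain, ran the other way through 1 cell. It had 1901 UMIs (6111 CPM) in the Gsdme-KO and 157 UMIs (909 CPM) in the WT plasma-like cells, a ratio of 6.73 (5.71 to 7.97). A single Gsdme-KO cell held 1841 of these UMIs, beside 56 of Igkc, and was the only plasma-like cell in either library with more lambda than kappa. No other Gsdme-KO plasma-like cell had more than 12 Iglc2 UMIs. Both other Gsdme-KO cells with more than 1000 Iglc2 UMIs lay outside the plasma-like cells: 1 with 1689 in the macrophage-marked cells and 1 with 1049 in the endothelial cell-like cells. All 3 cells were led by the variable segments Ighv1-18 and Iglv2. Over all kept cells Iglc2 had 94.96 CPM and 6.69 CPM, Iglc3 160 UMIs and 129 UMIs, and Iglc1 69 UMIs and 92 UMIs.

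Jchain, the joining chain, had UMIs in every plasma-like cell. It ranged from 4 to 577 UMIs with a median of 154 in the Gsdme-KO cells, and from 3 to 1091 UMIs with a median of 561.5 in the WT cells. Summed, it had 18995 CPM and 52028 CPM, a ratio of 0.365 (0.353 to 0.377). The difference was also there within a class: in Ighm-dominant cells Jchain took a median of 1.63% of the UMIs in the Gsdme-KO library (0.348% to 5.45%) and of 5.27% in the WT library (0.0197% to 8.59%). In Igha-dominant cells the medians were 3.02% (2 cells) and 6.58% (6 cells). These ranges overlapped in Ighm-dominant cells and did not in Igha-dominant cells, where WT cells lay between 5.84% and 7.11% and Gsdme-KO cells at 0.961% and 5.08%.

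Together the 10 genes had 239898 CPM in the Gsdme-KO and 429726 CPM in the WT plasma-like cells, a ratio of 0.558 (0.553 to 0.564). A large share taken by these genes lowers the CPM of all others: with CPM of UMIs other than immunoglobulin UMIs the ratio was 0.418. The median log2 ratio over all 5400 genes with at least 10 UMIs in the plasma-like cells was 0.51. A ratio of at least 1.5 either way was reached by 58.3% of those genes, 46% higher and 12.3% lower in the Gsdme-KO library. Of the 9 members with at least 10 UMIs there, 3 were higher (Ighg1, Ighg3 and Iglc2) and 5 lower (Igha, Ighg2b, Ighg2c, Igkc and Jchain). The 5 lower of 9 members were a larger share than the 12.3% over all genes, and the 3 higher a smaller share than the 46%.

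**Figure D3:**
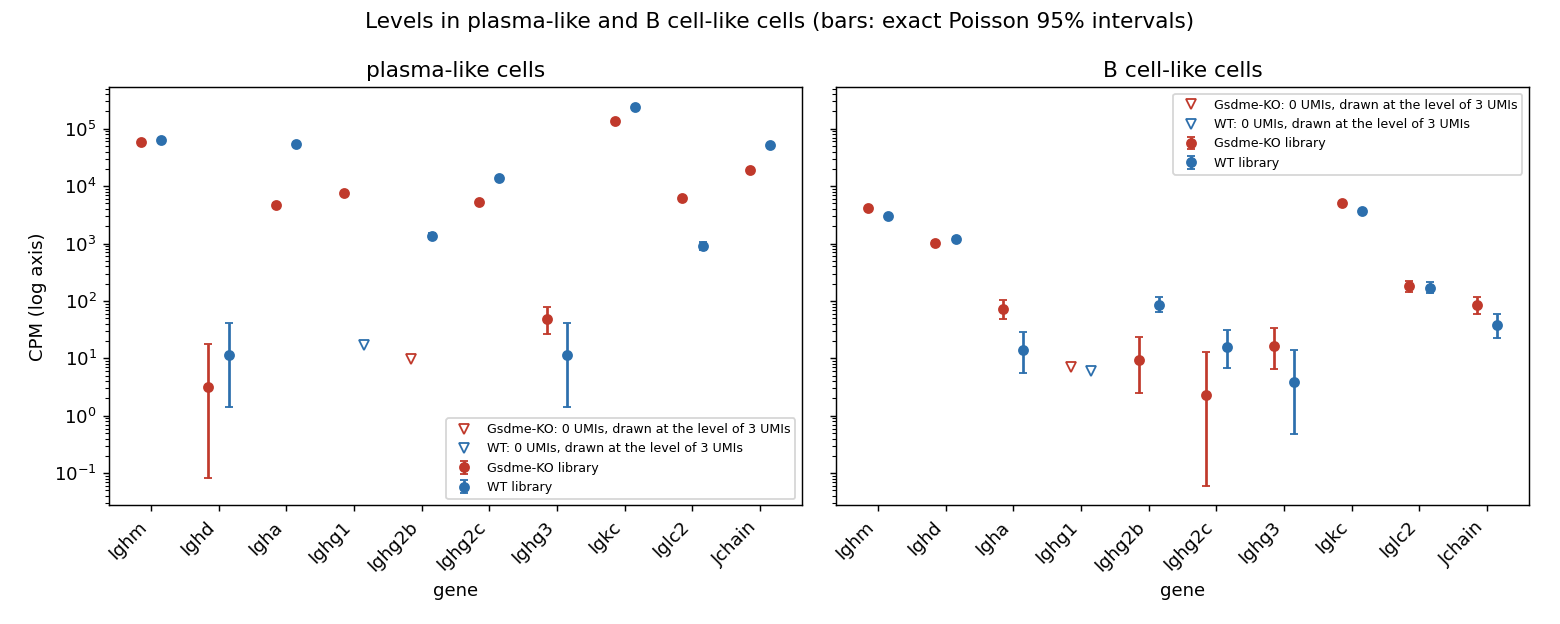
Level of each of the 10 genes in CPM on a log axis, in plasma-like cells on the left and B cell-like cells on the right, with Gsdme-KO in red left of WT in blue. Bars are exact Poisson 95% intervals and open triangles mark genes with 0 UMIs, drawn at the level of 3 UMIs. In plasma-like cells Igha, Igkc and Jchain lie lower in the Gsdme-KO library and Iglc2 higher, while in B cell-like cells Ighm and Igkc lie slightly higher.

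A single pair of variable segments led most of the Gsdme-KO plasma-like cells, a pattern noticed after the data were seen. The kappa segment Igkv5-43 was the leading light chain segment in 25 of 34 Gsdme-KO cells, all 25 Ighm-dominant, and in 21 of them the heavy chain segment Ighv9-3 led as well. The remaining 4 had no Ighv UMI. These calls rested on 1 to 13 UMIs of Ighv9-3 and on 2 to 273 UMIs of Igkv5-43 per cell. In all, 8 light chain segments led the 34 Gsdme-KO cells, against 14 segments in the 16 WT cells. The heavy chain segments that led numbered 5 in the Gsdme-KO and 14 in the WT cells.

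Both segments were counted in the Gsdme-KO library alone. Igkv5-43 had 2446 UMIs in 82 Gsdme-KO cells, 2114 of them in plasma-like cells, and Ighv9-3 had 125 UMIs in 26 Gsdme-KO cells. Each had 0 UMIs in 7619 WT cells, which at a floor of 3 counts allows a share of cells with a UMI of up to 0.0394%. The exact Clopper-Pearson interval reached 0.0484%. Of these WT cells 7382 lay outside the B lineage, so the limits were wider where the segments could be looked for. The exact interval reached 20.6% for 0 of 16 plasma-like cells and 1.77% for 0 of 206 B cell-like cells. Another Gsdme-KO plasma-like cell was led by Ighv9-3 and Igkv5-39. Aligned to each other, Igkv5-43 and Igkv5-39 had 262 identical and 25 mismatched coding bases. A further 60 gaps, between annotated lengths of 347 and 287 bases, brought the identity with gaps included to 75.5%. The last 150 coding bases of each segment are shown because they are the ones closest to the junction with the rest of the chain. They are the reference sequence and not reads from these cells.
Ighv9-3, chr12:114140692-114140841, minus strand: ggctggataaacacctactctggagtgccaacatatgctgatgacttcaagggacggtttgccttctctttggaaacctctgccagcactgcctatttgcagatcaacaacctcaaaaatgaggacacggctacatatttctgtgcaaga
Igkv5-43, chr6:69823355-69823504, minus strand: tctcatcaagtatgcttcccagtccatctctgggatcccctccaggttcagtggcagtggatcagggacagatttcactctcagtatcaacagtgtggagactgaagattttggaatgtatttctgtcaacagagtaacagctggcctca

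The cells led by Igkv5-43 were a large part of the set. They held 59.2% of the constant region UMIs and 74.8% of the Ighm UMIs of the Gsdme-KO plasma-like cells. Their constant region genes took a median of 18.8% of the UMIs (14.1% to 38.2%), against 35.8% (13.7% to 49.3%) in the other 9 Gsdme-KO cells and 47.3% in the WT cells. Jchain took a median of 1.43%, 2.08% and 6.45% in the 3 sets.

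Mki67 and Top2a had higher levels in these cells. Mki67, the gene of the proliferation antigen Ki-67, had 1248 CPM in the cells led by Igkv5-43, with UMIs in 18 of 25 cells, against 190 CPM in the other Gsdme-KO cells (5 of 9) and 133 CPM in the WT cells (6 of 16). Top2a, a topoisomerase needed for chromosome separation, had 790, 148 and 145 CPM. Ube2c, a ubiquitin-conjugating enzyme of mitosis, had 337 CPM (265 to 424), 211 CPM (129 to 326) and 34.7 CPM (12.7 to 75.6), so its intervals overlapped between both Gsdme-KO sets. Xbp1, the transcription factor of the secretory programme, had 3485, 3251 and 2448 CPM, and Cd79a, a partner of the membrane receptor, 116, 296 and 810 CPM. Other plasma cell markers did not follow Xbp1 and were highest in the WT cells. Derl3 had 194, 338 and 393 CPM, Prdm1 365, 338 and 498 CPM and Sdc1 87.8, 52.8 and 104 CPM. The intervals of Prdm1 and of Sdc1 overlapped among the 3 sets. These genes were chosen after their values were seen.

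Other segment pairs that recurred did so in the Gsdme-KO library. With the same dominant heavy chain gene, Ighv1-18 and Iglv2 led 3 Ighm cells, Ighv8-12 and Igkv14-111 led 2 Ighm cells, Ighv1-81 and Igkv1-110 led 2 Igha cells and Ighv1-81 and Igkv1-117 led 2 Ighg2c cells. Some of these calls rest on single UMIs: 1 of the Igha cells, a B cell-like cell of 565 UMIs, had 1 UMI of each segment, and 1 of the Ighg2c cells had 1 UMI of Ighv1-81. No pair led more than 1 WT cell among the plasma-like cells and cells with at least 100 constant region UMIs. The counts give the leading segment only and no junction sequence, so cells with the same pair cannot be told apart from cells of 1 clone or of several.

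B cell-like cells were mostly unswitched. Ighm and Ighd were found together in 116 of 168 Gsdme-KO cells (69.0%) and in 147 of 206 WT cells (71.4%). Ighm was dominant in 101 and 123 cells, Ighd in 30 and 38, and a switched gene in 2 and 4. Of the cells with at least 3 light chain UMIs, lambda exceeded kappa in 7 of 138 Gsdme-KO cells and 9 of 168 WT cells. The median cell carried 19 constant region UMIs in the Gsdme-KO library and 16 in the WT library.

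Ighm was higher and Ighd lower in the Gsdme-KO B cell-like cells, within narrow counting error. Ighm had 4116 CPM in the Gsdme-KO and 2990 CPM in the WT cells, a ratio of 1.38 (1.28 to 1.48). Ighd had 1021 CPM and 1217 CPM, a ratio of 0.839 (0.741 to 0.950). Of heavy chain UMIs, Ighd was 19.5% in the Gsdme-KO and 28.1% in the WT cells. Igkc had 5060 CPM and 3676 CPM, a ratio of 1.38 (1.29 to 1.47), and Iglc2 181 CPM and 171 CPM, a ratio of 1.06 (0.768 to 1.45).

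The other members were sparse in B cell-like cells. Jchain had 37 UMIs in the Gsdme-KO and 19 UMIs in the WT cells, and Igha 31 and 7, of which 29 were in 1 Gsdme-KO cell. Ighg2b had 4 UMIs and 44 UMIs, Ighg2c 1 and 8, and Ighg3 7 and 2, while Ighg1 had 0 in both, which at a floor of 3 counts allows a share of cells with a UMI of up to 1.79% in the Gsdme-KO and 1.46% in the WT cells. Ighe, the IgE heavy chain, had 0 UMIs and 6 UMIs.

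A few cells lifted the Gsdme-KO levels. Among B cell-like cells, 6 in the Gsdme-KO library and 0 in the WT library carried at least 100 constant region UMIs, a limit set after the data were seen. Without them the ratio was 1.21 for Ighm, 1.08 for Igkc, 1.11 for Jchain, 0.354 for Igha and 1.08 for the 10 genes together, which had been 1.29 (1.23 to 1.34). Of the 8344 genes with at least 10 UMIs in B cell-like cells, 33.2% reached a ratio of 1.5 either way, and 13% were higher and 20.3% lower. Of the 7 members measured, 2 were higher (Igha and Jchain) and 1 lower (Ighg2b).

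Ighm, Igha, Ighg2c, Igkc and Jchain were highest in plasma-like cells in both libraries. Ighm had 58985, 9568, 4116 and 730 CPM in the plasma-like, macrophage-marked, B cell-like and endothelial cell-like cells under the KO label, the 4 highest classes. In the WT library the plasma-like cells with 64759 CPM were followed by B cell-like cells with 2990, macrophage-marked cells with 907 and macrophage cluster 2 with 178. Ighd had another order, with 1021 and 1217 CPM in B cell-like cells against 3.21 and 11.6 CPM in plasma-like cells. Of the 1911 Ighm UMIs in the Gsdme-KO macrophage-marked cells, 1 cell held 1638, and it also held 1689 Iglc2 UMIs and 499 Jchain UMIs.

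Over the whole B lineage, with its 3 parts summed, the 10 genes had 88941 CPM in the Gsdme-KO and 101764 CPM in the WT library, a ratio of 0.874 (0.866 to 0.883). Ighm was higher, at 1.41 (1.38 to 1.45), and made up 78.4% and 50.3% of the heavy chain UMIs. The switched genes, Igha and the Ighg genes, together made up 19.8% and 47.1%. Counted by cells and not by UMIs, the contrast was smaller. Of the B lineage cells with at least 3 heavy chain UMIs and no tie, Ighm was dominant in 147 of 186 (79.0%) in the Gsdme-KO and 143 of 193 (74.1%) in the WT library, and a switched gene in 7 (3.76%) and 11 (5.70%). The other 39 and 44 B lineage cells had fewer UMIs or a tie. Shares of UMIs compare molecules counted, with no correction for transcript length.

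The direction of the summed ratio depended on how cells were weighted. Thinning every cell to 1000 UMIs gave 1.23, and averaging the CPM of single cells gave 1.30, while leaving out the highest doublet scores gave 5.90. Leaving out the plasma-like cells led by Igkv5-43 gave 0.536. Of the 9802 genes with at least 10 UMIs in the B lineage, 33.9% reached a ratio of 1.5 either way, 17.1% higher and 16.8% lower. Of the 10 members, 3 were higher (Ighg1, Ighg3 and Iglc2) and 5 lower (Ighd, Igha, Ighg2b, Ighg2c and Jchain).

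**Figure D4:**
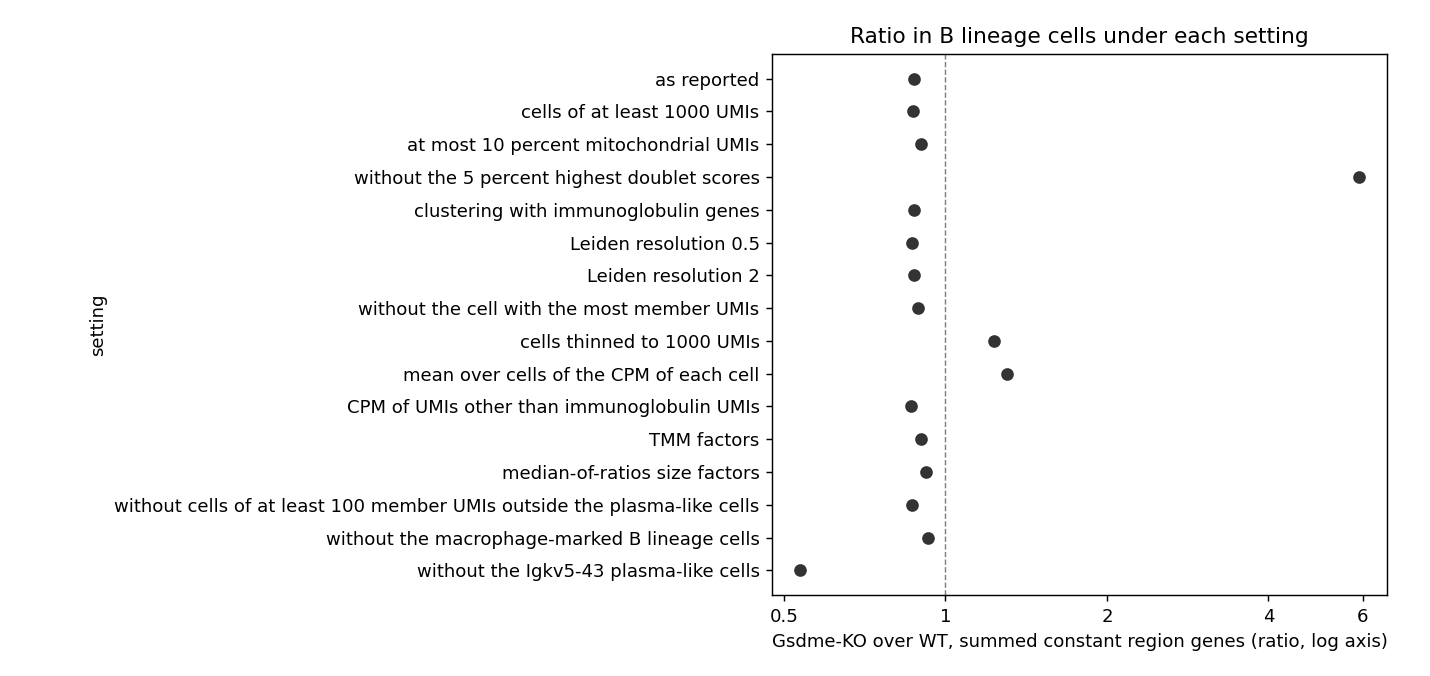
Ratio of the 10 genes summed in B lineage cells, Gsdme-KO over WT on a log axis, under each processing setting, with a dashed line at 1. Most settings lie between 0.863 and 0.926, while thinning (1.23), averaging over cells (1.30) and leaving out high doublet scores (5.90) lie above 1 and leaving out the cells led by Igkv5-43 (0.536) lies lowest.

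Outside the B lineage the constant region genes were low and partly a few large cells. The 10 genes summed there had a ratio of 1.81, but 8 Gsdme-KO cells and 0 WT cells carried at least 100 of these UMIs, and without them the ratio was 0.664. Of these 8 cells 5 carried at least 1000, 4 of them in fibroblast cluster 9 and 1 among the endothelial cell-like cells. That endothelial cell-like cell held 724 Ighm UMIs, and the class stood at 730 CPM in the Gsdme-KO and 20.8 CPM in the WT library. The 4 cells in fibroblast cluster 9 had between 21550 and 38993 UMIs, above the class median of 11196.5.

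The remaining UMIs were spread thinly over nearly all classes. Igkc had 44.0 CPM in the Gsdme-KO and 81.8 CPM in the WT cells of fibroblast cluster 13, and 95.04 CPM and 118 CPM in neutrophil-like cells. Neither cell type is known to make antibody, so these levels serve as the background against which other classes are read. Ighg1, dominant in 1 Gsdme-KO plasma-like cell, had 90 UMIs in 1.04% of the cells outside the B lineage, never more than 2 in a cell. Igha UMIs per Igkc UMI lay between 0.0602 and 0.215 in 16 WT classes outside the B lineage with at least 50 Igkc UMIs.

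Ighm in macrophages did not follow that background, an observation made after the data were seen. In macrophage cluster 2, led by Lyve1, Ccl8 and Fcna, Ighm had 161 CPM (153 to 169) in the Gsdme-KO and 178 CPM (166 to 190) in the WT library. It was found in 64.2% of 996 Gsdme-KO cells and 63.4% of 640 WT cells. In fibroblast cluster 13, at similar depth (medians of 8976 and 7601.5 UMIs, against 9032.5 and 7434.5), it was found in 10.7% and 10.4%, with 12.9 CPM and 15.4 CPM.

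Igkc did not rise with it. In macrophage cluster 2 Igkc had 46.3 CPM and 88.5 CPM, close to its levels in fibroblast cluster 13. There were 3.47 Ighm UMIs per Igkc UMI in the Gsdme-KO and 2.01 in the WT cells of macrophage cluster 2, against 0.293 and 0.188 in fibroblast cluster 13. Cells of macrophage cluster 2 with no UMI of any B cell marker or of Igkc still had 161 CPM and 179 CPM of Ighm, in 59.6% of 557 and 60.4% of 260 cells.

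Ighm differed among macrophage clusters in both libraries. Macrophage cluster 3, led by Arg1, Gpnmb and Spp1, had 19.3 CPM and 24.8 CPM, and macrophage cluster 6, led by Cd72 and Ch25h, had 68.8 CPM and 75.9 CPM. Dendritic cell-like cells had 130 CPM and 111 CPM. After thinning to 1000 UMIs, 15.3% and 17.9% of the cells of macrophage cluster 2 had an Ighm UMI. At least 3 UMIs were found in 22.3% and 19.5% of the unthinned cells, and the most in 1 cell were 51 and 9. The counts do not say whether these transcripts carry a rearranged variable segment.

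**Figure D5:**
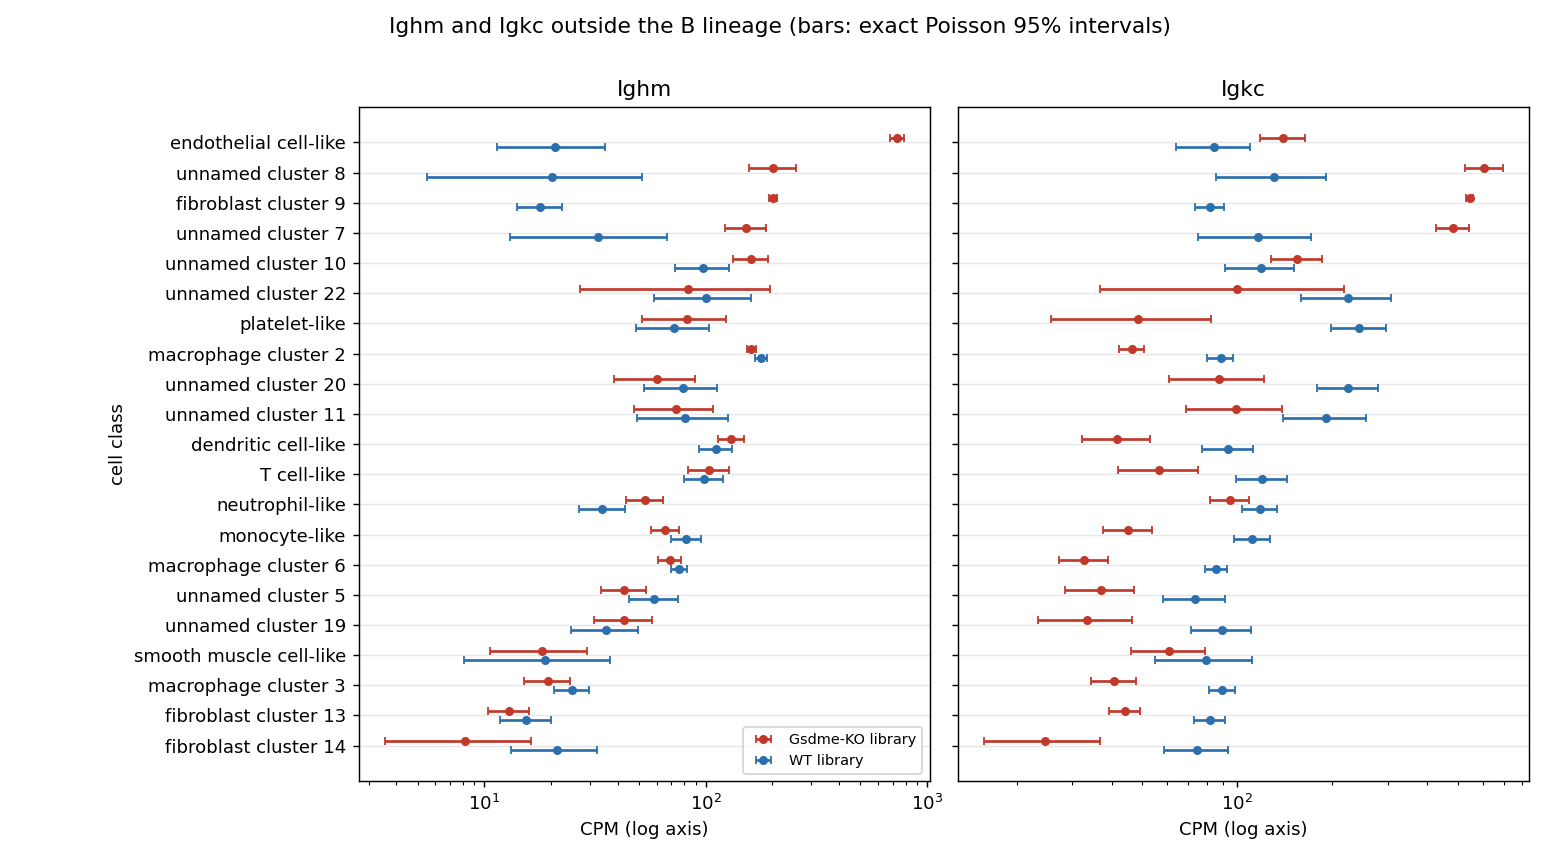
Ighm (left) and Igkc (right) in CPM on a log axis in each class outside the B lineage, Gsdme-KO in red above WT in blue, with exact Poisson 95% intervals. Macrophage cluster 2 stands at 161 and 178 CPM of Ighm while its Igkc stands at 46.3 and 88.5 CPM, and endothelial cell-like cells and fibroblast cluster 9 of the Gsdme-KO library include 1 and 4 cells with at least 1000 constant region UMIs.

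Genes of the antibody-secreting programme were higher in the B lineage of the Gsdme-KO library. Of 14 listed genes of the secretory programme, 8 were at least 1.5 times higher in the Gsdme-KO library and 0 lower, beside 17.1% higher and 16.8% lower over all genes, and the median log2 ratio was 0.63 beside -0.05 over all genes. All plasma cell markers used to call the plasma-like cells are among these 14 genes. The counts are therefore not independent of that call or of the number of plasma-like cells in each library. Xbp1 had a ratio of 1.97 (1.77 to 2.20), Sec11c, a subunit of the signal peptidase, 2.63 (2.27 to 3.06), and Txndc5, a disulfide isomerase, 1.60 (1.38 to 1.85). Pou2af1, a coactivator at immunoglobulin promoters, was at 0.930 (0.827 to 1.05). Plasma-like cells made up 15.1% and 6.75% of these cells, and within the plasma-like cells 5 of the 14 were higher and 1 lower, with a median log2 ratio of 0.34 beside 0.51 over all genes. The 5 of 14 were a smaller share than the 46% of all genes that were higher there. In B cell-like cells 1 was higher and 3 lower of 9 measured, beside 13% and 20.3% of all genes.

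Most receptor and identity genes differed by less than 1.5 times between the libraries, as did most genes. Over all genes of the B lineage 17.1% were higher and 16.8% lower. Of 12 genes of the B cell receptor complex, 0 were higher and 1, the complement receptor Cr2, was lower, at 0.476 (0.369 to 0.611). Cd79a had a ratio of 0.768 (0.709 to 0.831), and the kinases Lyn and Syk had 0.985 and 0.756. The adaptor Blnk was at 1.23 (1.03 to 1.46). Of 10 identity genes 0 were higher and 2 lower, Pax5 and Fcer2a, and Bank1, Ms4a1, Ebf1 and Fcrla had ratios between 0.670 and 0.919. These sums include the plasma-like cells, 15.1% and 6.75% of the B lineage. In B cell-like cells alone 0 genes of either list were higher, and Cr2 (0.621) and Fcer2a (0.635) were lower, beside 13% and 20.3% over all genes. There Cd79a had 1.08 (0.993 to 1.18), Lyn 1.25 (1.09 to 1.44), Syk 0.922 (0.796 to 1.07) and Pax5 0.916 (0.784 to 1.07).

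Genes of class switching and the germinal centre were mostly lower in the Gsdme-KO library. Of 8 listed genes 0 were higher and 5 lower in the B lineage, with a median log2 ratio of -0.97, beside 16.8% lower and a median of -0.05 over all genes. In B cell-like cells 0 were higher and 5 lower of 7 measured, beside 20.3% lower over all genes. The B cell-like cells included a sub-cluster of 1 Gsdme-KO and 8 WT cells with Gcsam, a gene of this list, among its leading genes. The part of that sub-cluster in these counts was not tested. Most of these genes had few UMIs: with at least 30 UMIs required, 2 of 4 were lower in the B lineage and 1 of 3 in B cell-like cells, with median log2 ratios of -0.70 and -0.38. The repressor Bach2 had a ratio of 0.557 (0.487 to 0.636), and Bcl6, the factor that sets the germinal centre state, 0.755 (0.517 to 1.10). The transcription factor Mef2b was at 0.684 (0.358 to 1.29).

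The remaining lists were smaller. Of 7 measured genes of B1 and marginal zone cells 4 were higher and 1 lower, beside 17.1% and 16.8% over all genes. Ahnak, a large scaffold protein, was at 1.58 (1.38 to 1.81), the tetraspanin Cd9 at 1.33 (0.924 to 1.93), the scramblase Plscr1 at 1.09 (0.709 to 1.70) and the transcription factor Bhlhe41 at 1.64 (0.908 to 3.07). Of 7 measured genes of B cell attraction and survival 2 were higher and 1 lower. Among them Cxcr5, Cxcr4 and Ccr7, chemokine receptors, had ratios of 0.728, 0.671 and 0.631, and Tnfrsf13c, the receptor for the survival factor BAFF, had 0.697. Of 3 measured genes of immunoglobulin transport and surrogate chains 1 was higher and 1 lower. Vpreb3 had 0.616 (0.380 to 0.989), Cd74, the invariant chain, 0.707 (0.673 to 0.744) and Fcgrt, the neonatal Fc receptor, 2.80 (1.61 to 5.13). Of the 58 Gsdme-KO and 17 WT UMIs of Fcgrt, B cell-like cells held 5 and 8, and plasma-like cells 3 and 1. The rest were in the macrophage-marked cells, so Fcgrt was not higher in B cell-like cells.

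The genes whose levels were most like the summed members over cell classes were B cell genes. Over 44 points, 22 classes in each of both libraries, Pearson's r of log2(CPM + 1) was 0.854 for Pou2af1, 0.852 for Cr2, 0.833 for Gm30211, 0.826 for Fcmr and 0.820 for Fcer2a. The points share libraries and depth, and the likeness rested on the B lineage: without it, r over 42 points lay between -0.10 and 0.34. The B lineage entered as 1 class per library, so B cell-like and plasma-like cells were merged. In plasma-like cells Cr2 had 0 UMIs and 1 UMI and Fcer2a 0 and 0. In B cell-like cells they had 88 and 167 UMIs and 91 and 169 UMIs. Pou2af1 was found in both, with 314 and 169 UMIs in plasma-like and 250 and 333 in B cell-like cells. Fcmr encodes an Fc receptor for IgM.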

How the data were processed

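Single-cell RNA libraries were prepared with the BD Rhapsody system from collagenase- and DNase-digested aorta, 1 library per group, per the labels' protocols. The authors deposited UMI counts per gene and cell, not normalized. Tools named in the submitters' processing notes are CASAVA 1.8 and STARsolo, with the build mm10, and further settings were not given in the sources used here. Gene names come from the deposited feature lists, in which the IDs of the 10 genes matched the GENCODE M21 annotation of GRCm38, and sequences were read from the GENCODE M21 transcripts. The members and gene lists were chosen with earlier results of these data known.

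Cells with at least 500 UMIs, 250 genes and at most 25% mitochondrial UMIs were kept. They were clustered with scanpy 1.11.5 (2000 variable genes, 30 components, 15 neighbours, Leiden resolution 1) without 393 immunoglobulin features, and clusters were named from marker lists. The B lineage cluster was clustered again in the same way. The counts of all cells of a class were added up within a library and given as CPM of all UMIs of the class, with exact Poisson intervals. Ratios had exact conditional binomial intervals and shares exact Clopper-Pearson intervals, all at 95% and all covering counting error only. A sum of 0 was set to a floor of 3 UMIs for bounds, and no ratio was given where both sums were at or under the floor. With 1 library per group there was no test and no p-value. Identities were computed with biopython 1.88. Scrublet called 0 doublets, so none were removed. The calculation was tested on simulated data.

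All 10 members were described. Of each gene list, the members with at least 30 UMIs in the B lineage of both libraries together were named, at most 4 with the most UMIs. The 5 genes most like the summed members over cell classes were those with the highest Pearson correlation of log2(CPM + 1) among genes with at least 100 UMIs. Genes outside these rules (Mki67, Top2a, Ube2c, some cell type markers, the V segments and list members called by fold) were chosen after their values were seen. Alternatives were another depth or mitochondrial limit, 5% of the highest doublet scores left out, other clusterings, thinning, means over cells and other scalings (TMM of edgeR 4.0.16, median of ratios). An item of the gene lists is not reported here.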

Additional observations from a re-analysis of the deposited data

Results flagged for a closer look

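For 4 genes the ratio of Gsdme-KO to WT lay above 1 in B cell-like cells and below 1 in plasma-like cells. The ratios were 1.38 and 0.911 for Ighm, 5.22 and 0.0888 for Igha, 1.38 and 0.568 for Igkc, and 2.29 and 0.365 for Jchain. With 1 library per group the difference between the ratios was not tested. Without the 6 Gsdme-KO B cell-like cells of at least 100 constant region UMIs, the ratios in B cell-like cells were 1.21, 0.354, 1.08 and 1.11.

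Outside the 10 genes, the variable segments Ighv9-3 and Igkv5-43 had 125 and 2446 UMIs in the Gsdme-KO library and 0 UMIs in the WT library.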

How the results depend on the processing

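Values summed over cells rested on a few plasma-like cells, and the cause of each change below was not tested unless the setting itself shows it. In B lineage cells the ratio of the 10 genes summed, 0.874, was 0.900 with at most 10% mitochondrial UMIs, 0.887 without the richest cell of each library, 0.863 per UMI other than immunoglobulin UMIs, 0.899 with TMM factors, 0.919 with median-of-ratios factors and 0.926 without the macrophage-marked cells. It was 0.536 without the cells led by Igkv5-43, and turned to 1.23 after thinning, 1.30 as a mean over cells and 5.90 without the 5% highest doublet scores, a setting that removed 15 of 16 WT plasma-like cells. Over all cells, 0.880 became 0.870 with at least 1000 UMIs per cell, 0.892 with at most 10% mitochondrial UMIs, 0.900 without the richest cell, 0.993 after thinning, 0.929 with TMM factors, 0.928 with median-of-ratios factors, 0.742 without the cells of at least 100 constant region UMIs outside the plasma-like cells, 1.10 as a mean over cells and 4.37 without the highest doublet scores. The ratio of the plasma-like share of the B lineage, 2.24, was 33.7 without the highest doublet scores and 0.667 without the cells led by Igkv5-43, all of them Gsdme-KO cells.

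Single genes turned as follows. Without the highest doublet scores, the ratios in the B lineage were 132 for Ighg2c, 6.26 for Igkc and 6.70 for Jchain, over all cells 7.66, 4.53 and 5.52, and in plasma-like cells 265 for Ighm and at least 15.97 for Ighg2c. After thinning, Ighg2c was at 2.22 and Igkc at 1.25 in the B lineage, Ighg2c at 1.57 over all cells and 1.03 in plasma-like cells, and Igha at most 0.984 in B cell-like cells. As a mean over cells, Ighg2c was at 2.07 and Igkc at 1.32 in the B lineage, and Ighg2c at 1.67, Ighg3 at 0.824 and Igkc at 1.10 over all cells. Without the cells led by Igkv5-43, Ighm was at 0.692 in the B lineage and Ighg2c at 1.25 in plasma-like cells. Igha in B cell-like cells was at 0.341 with at least 1000 UMIs per cell and 0.354 without the cells of at least 100 constant region UMIs. Ighm in plasma-like cells was at 1.05 with immunoglobulin genes in the clustering. Of the other values of single genes and lists, 296 stayed within their counting interval and 153 moved outside it with no change of direction.

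Shares moved with the unit counted. Without the richest cell, Ighm was 85.6% of the heavy chain UMIs of the B lineage in the Gsdme-KO and 54.9% in the WT library, the switched genes 12.5% and 42.3%, and Igkc 91.9% of the light chain UMIs in the Gsdme-KO library. Counted by dominant gene over the cells with at least 3 UMIs and no tie, Ighm had 79.0% of 186 Gsdme-KO and 74.1% of 193 WT cells, switched genes 3.76% and 5.70%, and Igkc 96.9% of 192 and 96.9% of 194 cells. With at least 3 UMIs required, Ighm was found in 76.4% and 72.2% and Igkc in 82.7% and 78.9% of B lineage cells, and Ighm in 22.3% and 19.5% of macrophage cluster 2. After thinning, Ighm was found in 83.8% of the Gsdme-KO B lineage cells and in 15.3% and 17.9% of macrophage cluster 2.

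No paired analysis was possible because each group was 1 library, and there was no replicate to leave out. The 34 and 16 plasma-like cells limit every value that rests on them, and genes with 3 UMIs or fewer in a class were at the floor.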
